A study of Drosophila melanogaster with 6 samples.

Results

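The transcripts described are those of the cytoplasmic ribosomal proteins and their duplicate gene copies in Drosophila S2 cells depleted of spotted-dick. Members are probe sets that the annotation of the Drosophila_2 array assigns to a single gene with a symbol of the form RpL, RpS or RpLP followed by its number and any letters, or to sta. The rule found 40 of 18769 fly probe sets, which measure 34 of the 11982 genes with a probe set of their own. The RefSeq gene table (Release 6) holds 86 genes with such symbols, and the other 52, among them RpS10b and sta, had no probe set of their own. Another 2 probe sets, annotated to several genes with such a symbol among them, were not members. Of the array's fly probe sets 4720 are unnamed here.

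S2 cells are an embryonic fly cell line with hemocyte-like features. Cells of 3 samples received double-stranded RNA (dsRNA) against spotted-dick, the gene now named pita, a zinc-finger gene. Cells of the other 3 received dsRNA against GFP, a jellyfish protein absent from flies, and both groups were kept for 5 days before total RNA was extracted. No rescue and no further dsRNA for the gene is labelled, so its loss and any other effect of the dsRNA used cannot be told apart. Whether replicates were separate cultures is not stated, so p-values measure only the spread between these samples, which may be technical.

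Each ribosome has a small (40S) subunit, which reads the mRNA, and a large (60S) subunit, which joins amino acids. Their proteins are made in matched amounts, and in flies the loss of a single copy of many of these genes causes the Minute phenotype of slow growth and short bristles. Some ribosomal proteins are encoded by a pair of genes, one used in nearly all cells and the other a duplicate (such as RpS5b, RpS10a and RpS19b) known mainly from the germline.

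Values are array signals, a linear intensity with 1 value per probe set and array, and the 6 arrays are all there is to set the precision. The arrays were unequally bright. Their trimmed mean signal was 125.3 to 138.7 in the spotted-dick arrays and 125.7 to 189.4 in the GFP arrays. Changes were therefore tested after quantile normalization, which gives every array the same distribution of values, on the scale log2(signal + 16). Signals are named below as deposited or normalized. The scanner read the GFP arrays first and the spotted-dick arrays after them, so the order of reading cannot be told apart from the treatment. The target itself fell: the pita signal was 25.9, 46.6 and 28.7 in the spotted-dick arrays, against 335.9, 333.2 and 269.7 in the GFP arrays (log2 change -2.54 ± 0.16, SE, limma adjusted p = 6.96e-08). Of 11 plasmatocyte and S2 markers 8 lay above background on every array, among them the hemocyte genes Hml and srp and the collagen genes Col4a1 and vkg, while NimC1 and Sr-CI lay below it throughout. Background here means a deposited signal of 17.4, below which 95% of the values of 100 control probe sets for foreign sequences lay.

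The 40 probe sets fell into separate ranges of deposited signal with nothing between them, as the plot of signals by probe set shows. Signals of 30 probe sets, for 29 genes, lay between 2212 and 13055 on every array and are called bright below. Signals of the other 10 lay between 0.5 and 230.4 and are called dim. This division was made after the values were seen. The dim probe sets were of 2 kinds. In 5 cases they were further probe sets for RpL3, RpS7, RpS29 and RpS30, genes that also had a bright probe set. The other 5 were the only members for RpL10Aa, RpS5b, RpS10a, RpS19b and RpS28a, all of them duplicate copies. RpL34a, also a copy of a duplicated gene, was bright. All 10 dim probe sets had the plain identifier ending "_at", against 12 of the 30 bright ones. The others ended in "_a_at" (4) or "_s_at" (14). By the array maker's convention the ending "_s_at" marks a probe set that can match transcripts of more than 1 gene, so signals of near-identical copies may be mixed there.

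**Figure D1:**
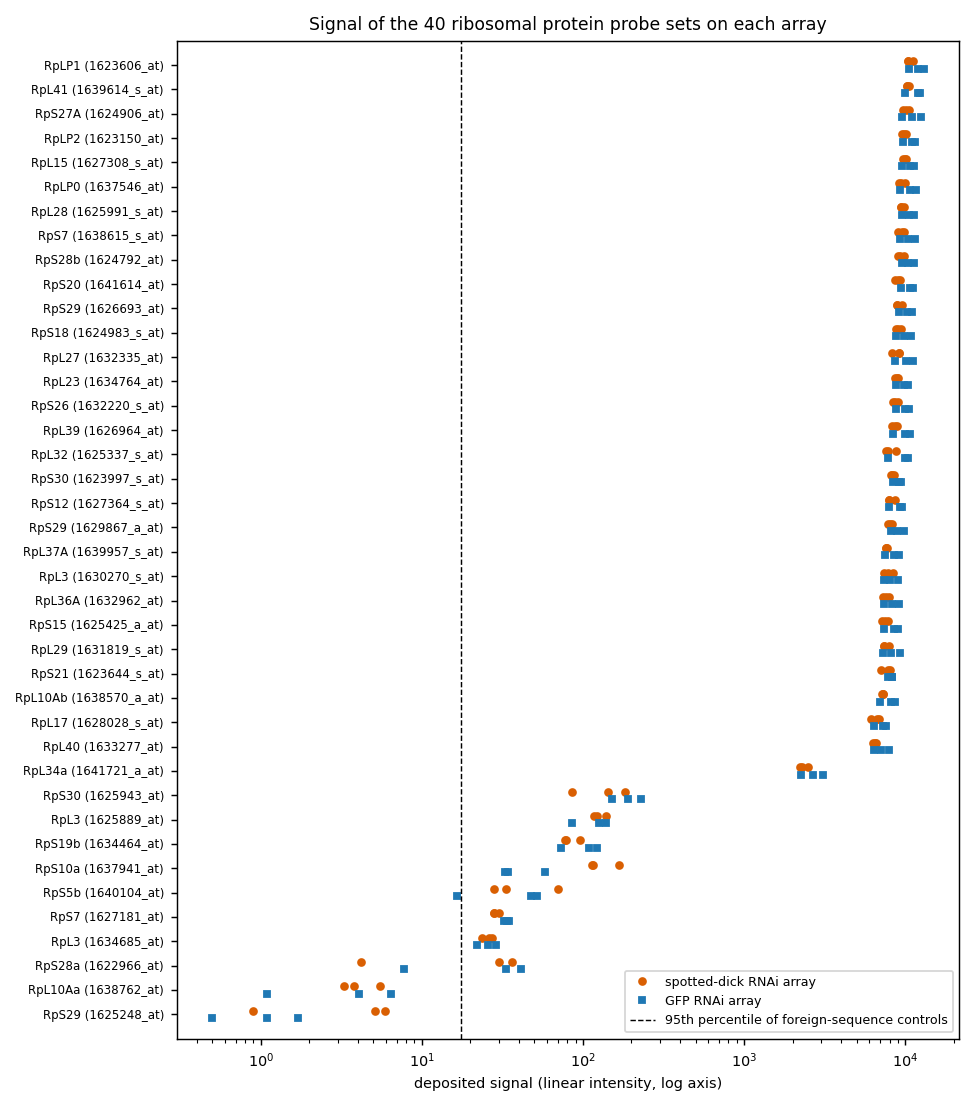
Deposited signal (linear intensity, log axis) of each of the 40 ribosomal protein probe sets, ordered by mean signal, with orange circles for the 3 spotted-dick RNAi arrays and blue squares for the 3 GFP RNAi arrays. The dashed line is the background of 17.4. RpS10a is the dim probe set whose spotted-dick points, 113.7 to 168.2, all lie to the right of its GFP points, 32.9 to 57.9, by a clear gap.

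A single ribosomal protein gene changed past the test, the duplicate copy RpS10a, which rose about 3-fold. RpS10 is a small subunit protein that lies near the channel through which mRNA enters. RpS10a (probe set 1637941_at) had deposited signals of 113.7, 168.2 and 116.3 in the spotted-dick arrays, against 57.9, 32.9 and 34.5 in the GFP arrays. All 3 spotted-dick signals lay above all 3 GFP signals, although the spotted-dick arrays were on the whole the dimmer ones, and all 6 lay above background. After quantile normalization the signals averaged 145.3 ± 26.1 in the spotted-dick arrays and 37.1 ± 7.3 in the GFP arrays (SD, n = 3 each). The log2 change was 1.60 ± 0.15 (SE; 95% interval 1.28 to 1.92), or 3.03-fold on the log2(signal + 16) scale (limma adjusted p = 9.85e-06). The added 16 shrinks the change of a transcript as dim as this one: adding 1 instead gave 1.95, and adding 64 gave 1.05. In bulk RNA a higher level in every cell and more cells that make the transcript cannot be told apart.

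Washing used 2 fluidics stations, which the file headers record. The first, station 1, took spotted-dick replicate 1 with GFP replicates 1 and 2, and station 2 took spotted-dick replicates 2 and 3 with GFP replicate 3. The normalized change of RpS10a was 1.47 within station 1 and 1.64 within station 2, so it was of like size in both, each value resting on 1 array of 1 group. All 17 refits with another setting or without 1 array called RpS10a as higher, with adjusted p-values in limma from 4.33e-11 to 0.0133. The highest came from limma without the intensity trend.

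**Figure D2:**
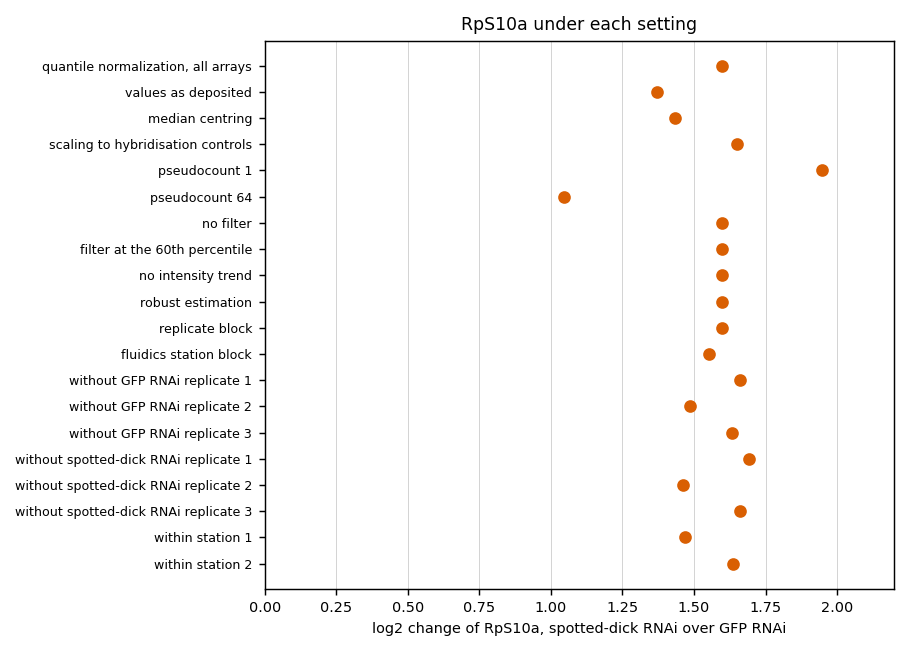
Log2 change of RpS10a, spotted-dick RNAi over GFP RNAi, under quantile normalization with all arrays, under each of 17 other settings and within each fluidics station. Every point lies to the right of 0, between 1.05 with a pseudocount of 64 and 1.95 with a pseudocount of 1. The other filters, the other variance estimates and the replicate block leave the change at 1.60 and alter only its p-value.

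Among the 38 members that passed the filter on dim probe sets, 1 was called, against 2.03% of all 11261 tested probe sets called in either direction, 0.604% as higher and 1.43% as lower. With 1 call in 38, the share of members called (2.63%) is near that background. The groups did not overlap for 7 of the 38 members, 18.4%, against 17.8% of all tested probe sets, so separation of the groups was about as common in the family as elsewhere. An unadjusted p under 0.05 was seen for 3 of the 38, against 12.3% of all tested probe sets. The 2 members that did not pass the filter were RpL10Aa and the dimmer RpS29 probe set 1625248_at, which stayed below background on all 6 arrays. Their signals were 3.3 to 5.5 in the spotted-dick arrays and 1.1 to 6.4 in the GFP arrays for RpL10Aa, and 0.9 to 5.9 and 0.5 to 1.7 for RpS29.

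The other duplicate copies were measured with less precision. RpS5b, a copy of a protein of the small subunit's head that is known from the ovary, had deposited signals of 69.7, 33.2 and 27.9 in the spotted-dick arrays, against 52.1, 47.5 and 16.6 in the GFP arrays. The groups overlapped, and its normalized log2 change of 0.39 ± 0.26 (SE, limma adjusted p = 0.595) had a 95% interval from -0.16 to 0.93. With the fluidics station as a block the change of RpS5b was 0.66 (limma adjusted p = 0.0699). It was 0.086 without spotted-dick replicate 1 and 0.14 without GFP replicate 3, and up to 0.58 with another array left out. RpS19b, a copy of another protein of that head, had signals of 78.8, 96.5 and 77.0 in the spotted-dick arrays and 122.0, 108.9 and 72.7 in the GFP arrays. After normalization it differed by 0.043 ± 0.119 on the log2 scale (SE, limma adjusted p = 0.923), while it was -0.21 in the deposited values and -0.14 with median centring, so its sign went with the scaling. RpS28a gave 36.2, 30.0 and 4.2 in the spotted-dick arrays, against 33.5, 7.7 and 41.3 in the GFP arrays. Its signal crossed background within each group, which left an interval of -0.84 to 0.72 around a log2 change of -0.063 (limma adjusted p = 0.963). RpL34a, a large subunit protein gene, had signals of 2212, 2283 and 2484 in the spotted-dick arrays and 3111, 2690 and 2248 in the GFP arrays, with a normalized change of 0.037 ± 0.058 (SE, limma adjusted p = 0.857) and one of -0.19 in the deposited values. None of these 4 copies passed the test, and only for RpS10a did the groups stand apart.

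**Figure D3:**
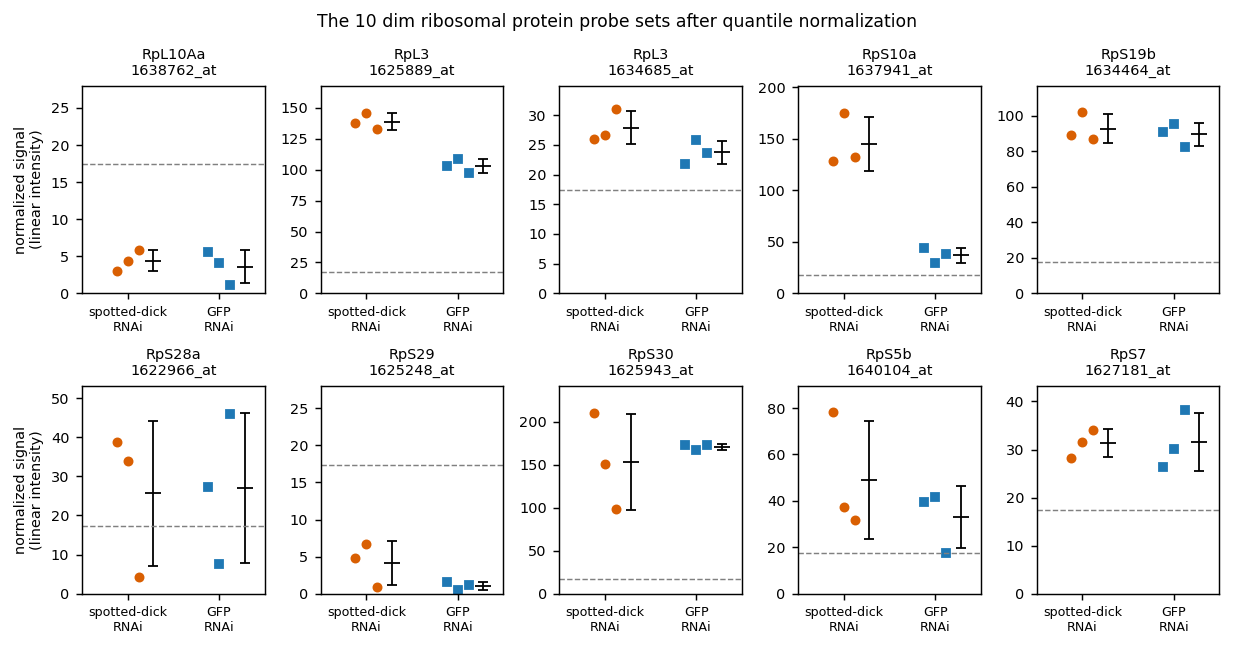
Quantile-normalized signal (linear intensity) of the 10 dim ribosomal protein probe sets, with a point per array (replicates 1 to 3 from left to right), spotted-dick RNAi in orange left of GFP RNAi in blue, and the mean ± SD (n = 3) in black. The dashed line is the background of 17.4 on the scale of the deposited signals. RpS10a averages 145.3 in the spotted-dick arrays and 37.1 in the GFP arrays, while the points of RpS5b, RpS19b, RpS28a, RpS30 and RpS7 overlap.

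Duplicate copies were then compared with each other by the log2 ratio of their normalized signals, each with 16 added, within each array. Only the difference of this ratio between groups was read, since probe sets differ in their response and their levels cannot be set against each other. RpS10b had no probe set of its own, so RpS10a was set against the median of the 30 bright members and against the other duplicate copies. With 3 arrays against 3 the two-sided exact permutation test cannot give a p under 0.10. The ratio of RpS10a to the bright median was higher in the spotted-dick arrays by 1.61, at -5.97, -5.57 and -5.93, against -7.24, -7.66 and -7.40 in the GFP arrays (exact permutation p = 0.10, the smallest possible; 0.175 after Benjamini-Hochberg adjustment over 7 ratios). It was likewise higher by 1.56 against RpS19b, by 1.66 against RpS28a and by 1.56 against RpL34a, with no overlap of the groups and the same exact p and adjusted value. The RpS28a signal lay below background on 2 of the 6 arrays, so the size of that ratio is poorly determined. Against RpS5b the difference was 1.21 and the groups overlapped (exact permutation p = 0.20, adjusted 0.28). All these ratios use the same RpS10a signals, so they are not independent of each other or of the RpS10a change given above.

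In 2 pairs both copies had a probe set of their own. RpL10A builds the mobile L1 stalk of the large subunit, and RpL10Ab was bright, with signals of 7177, 7280 and 7266 in the spotted-dick arrays and 8693, 8171 and 6990 in the GFP arrays, while RpL10Aa stayed at background. RpS28, a small protein near the exit channel of the mRNA, had a bright probe set for RpS28b, with signals of 9026, 9816 and 9223 in the spotted-dick arrays and 11413, 10480 and 9606 in the GFP arrays. The within-array ratio of RpL10Aa to RpL10Ab differed between groups by 0.046 (exact permutation p = 0.70, adjusted 0.817) and that of RpS28a to RpS28b by -0.048 (exact permutation p = 0.90, adjusted 0.90). In neither pair was a shift between copies detectable after quantile normalization, and for both pairs the dimmer copy lay at or near background. In the deposited values the ratio of RpL10Aa to RpL10Ab differed by 0.16 (exact permutation p = 0.10, the smallest possible). The deposited change of RpL10Ab alone was -0.13. With RpL10Aa below background on every array, this ratio does not cancel the brightness of the arrays and cannot show a shift between the copies.

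RpS10a was also set beside its neighbours on the chromosome, by the order of genes in the RefSeq table. The annotated span of tau, which encodes a microtubule-associated protein, overlaps that of RpS10a. Its probe set gave 4.6, 2.1 and 1.5 in the spotted-dick arrays, against 5.6, 7.5 and 6.4 in the GFP arrays, all below background. On the other side Mlc1, a muscle myosin light chain gene, and unc80 also lay below background on all 6 arrays. Of the genes within 5 places that were bright enough to test, CG5611 had a log2 change of 0.089, Hsdl2 of -0.16, CG12883 of 0.004 and Sce, a Polycomb group gene, of 0.31 (limma adjusted p = 0.89, 0.482, 0.991 and 0.141). None of these 4 passed the test.

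The bright members had small changes after normalization. Their log2 changes ran from -0.064 for RpL32 to 0.11 for RpL3, with a median of 0.016 beside 0.007 for all tested probe sets. None of the 30 passed the test, and the lowest limma adjusted p was 0.170, for RpL3. Standard errors ran from 0.031 to 0.058, and the 95% intervals of all 30 lay between -0.17 and 0.19. Changes of 29 of the 30, 96.7%, were smaller than 0.1 in size, against 77.8% of the 270 other tested probe sets that were at least as bright as the dimmest bright member, of which 7.04% were called. That dimmest member was RpL34a, at 2212 to 3111 as deposited, while 29 members were among the 100 brightest probe sets. Many of the 270 were therefore dimmer than most members, and the shares are not matched for level. The median deposited signal of the bright members differed 1.26-fold between the brightest and the dimmest array, where the trimmed mean of the arrays differed 1.51-fold, so bright signals spanned a narrower range. The part of such a narrowing in their small changes was not tested. By subunit, the median change was 0.013 over 12 small subunit probe sets, 0.026 over 15 large subunit ones and 0.006 over the 3 of the stalk (RpLP0, RpLP1 and RpLP2), which recruits the elongation factors.

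**Figure D4:**
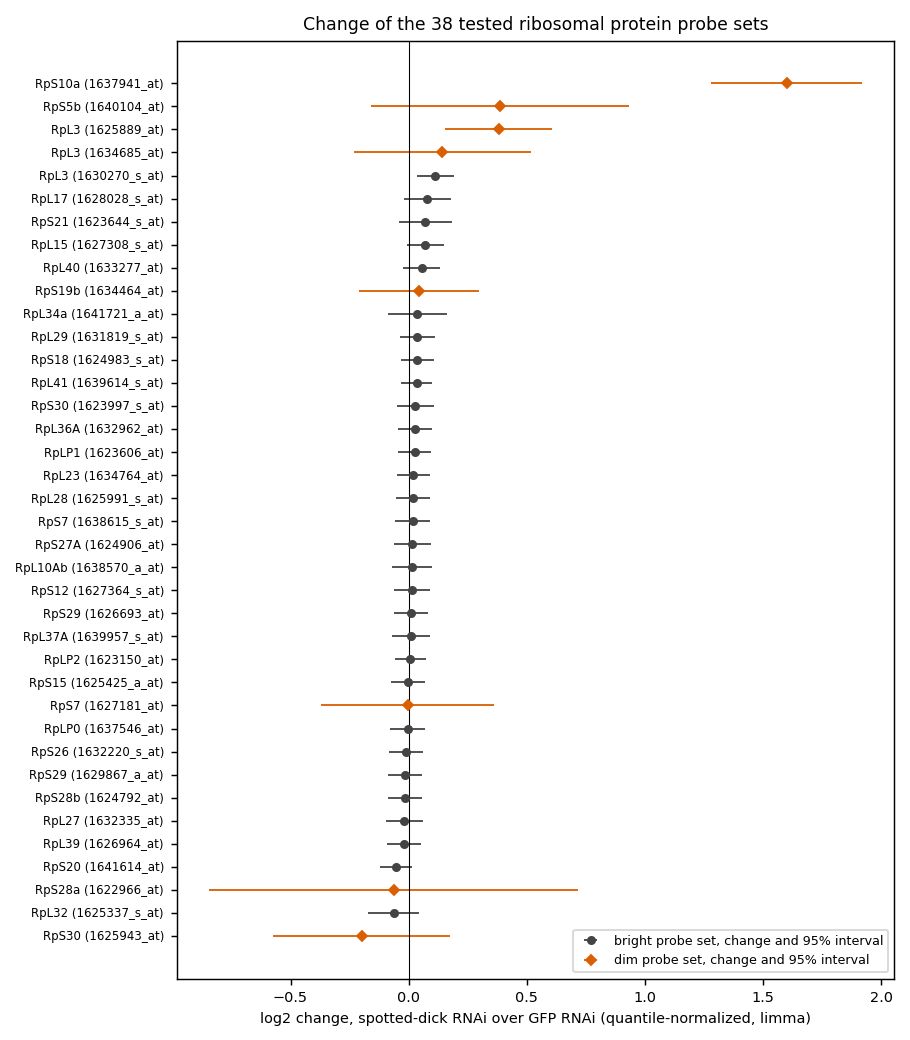
Log2 change (spotted-dick RNAi over GFP RNAi, quantile-normalized, limma) with its 95% interval for the 38 tested ribosomal protein probe sets, bright ones in grey and dim ones in orange. RpS10a lies apart at 1.60, and the 30 bright probe sets lie between -0.064 and 0.11.

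Of the 100 brightest probe sets on these arrays 29 were members and 55 were unnamed here, so the members themselves make up much of the top of the distribution that quantile normalization makes equal. How much of a change common to the family it would take away was not tested. In the deposited values the bright members had median signals of 8282, 8982 and 8593 in the spotted-dick arrays, against 10442, 9908 and 8565 in the GFP arrays. GFP replicates 1 and 2 stood highest, and GFP replicate 3 lay within the range of the spotted-dick arrays. Scaling to hybridisation controls used 9 probe sets, which measure a smaller number of transcripts added in fixed amounts. The median log2 change of the bright members was -0.13 in the deposited values, -0.068 with median centring and 0.15 with the hybridisation controls. These 3 scalings shift all probe sets of an array alike, so the median of all tested probe sets moved with it, at -0.20, -0.14 and 0.075. The bright median lay above that of all tested probe sets by 0.071 in each of the 3, with 28 of the 30 members above it. After quantile normalization it lay 0.009 above, with 20 of the 30 members above. Within stations the deposited values gave -0.26 in station 1 and 0.053 in station 2. No bright member was called under any of these 4 scalings, beside 1.24% of all probe sets in the deposited values, 1.48% with median centring and 1.71% with the hybridisation controls. The lowest limma adjusted p of a bright member was 0.070, for RpL3 with the hybridisation controls.

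**Figure D5:**
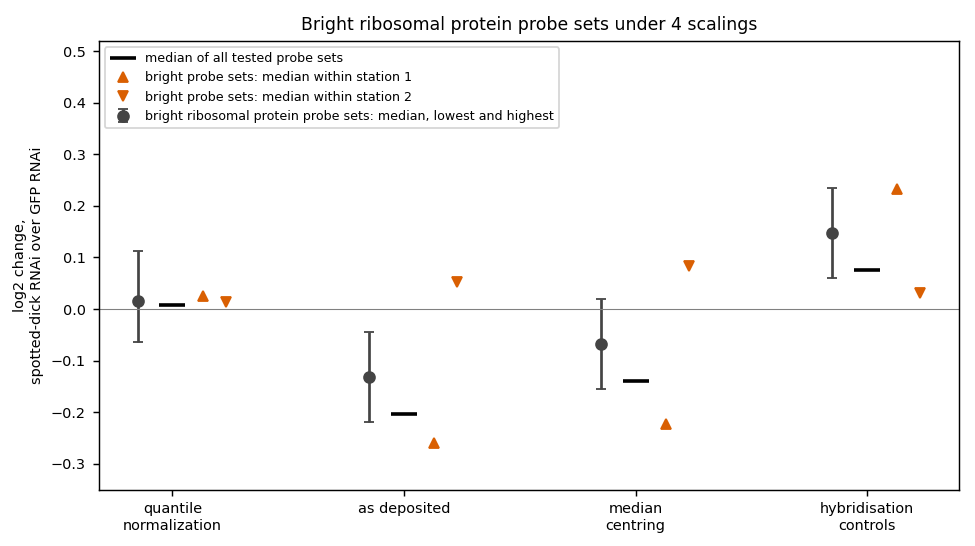
Log2 change (spotted-dick RNAi over GFP RNAi) of the 30 bright ribosomal protein probe sets under 4 scalings, with a grey point for their median and a bar from the lowest to the highest member, a black dash for the median of all tested probe sets, and triangles for the members' median within each fluidics station. The grey point is at 0.016, -0.13, -0.068 and 0.15 from left to right, so its sign depends on the scaling, while the length of the bar hardly changes (0.177 with quantile normalization and 0.173 with the other 3).

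The bright members were also set against one another without quantile normalization. Each deposited log2 value was set against the median of the 30 bright members on the same array. The difference between groups then ran from -0.061 for RpL32 to 0.11 for RpL3, beside a median pooled SD of 0.033. For 2 of the 30 the groups did not overlap, RpL3 and RpS20, against 14.2% of all tested probe sets treated in the same way. The centring uses these same 30 probe sets and removes what they share, so their count and that background are not alike. RpS20, a small subunit protein, had relative values of 0.071, 0.055 and 0.075 in the spotted-dick arrays, against 0.096, 0.104 and 0.143 in the GFP arrays, a difference of -0.047. RpL32, often called rp49 and widely used in fly work as a reference transcript, had -0.129, -0.033 and -0.136 in the spotted-dick arrays and -0.069, 0.079 and -0.125 in the GFP arrays. Its groups overlapped, and its limma change after normalization was -0.064 ± 0.050 (SE, adjusted p = 0.669). RpL15, RpL17 and RpS21 differed by 0.074, 0.050 and 0.061, each with overlapping groups. The ubiquitin fusion genes RpS27A and RpL40, which give free ubiquitin as well as a ribosomal protein, differed by 0.037 and 0.018.

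RpL3, a protein close to the site of peptide bond formation, was the one gene with 3 tested probe sets. Its bright probe set (1630270_s_at) had relative values of -0.155, -0.087 and -0.139 in the spotted-dick arrays, against -0.211, -0.300 and -0.206 in the GFP arrays, so the groups stood apart by 0.11. The normalized change of that probe set was 0.113 ± 0.036 (SE, limma adjusted p = 0.170). The dim probe set 1625889_at had normalized signals of 137.8, 146.2 and 132.5 in the spotted-dick arrays and 102.8, 108.5 and 97.7 in the GFP arrays, with no overlap. On the log2 scale it differed by 0.38 ± 0.11 (SE, limma adjusted p = 0.0950), the smallest adjusted p of the family after RpS10a. In the deposited values the signals of 1625889_at overlapped, at 121.7, 139.1 and 116.8 in the spotted-dick arrays and 138.7, 125.3 and 86.0 in the GFP arrays. The remaining probe set (1634685_at) had a change of 0.14 ± 0.18 (SE, limma adjusted p = 0.803). All 3 had positive changes after normalization and none passed the test, and since they measure 1 gene in the same samples they are not independent of each other. As deposited, the change of the bright probe set was -0.045.

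Further probe sets of other genes also differed in how they behaved. RpS30, which is made as a fusion with a ubiquitin-like protein, was bright in 1623997_s_at, with a change of 0.028. Its dim probe set 1625943_at had normalized signals of 209.8, 150.2 and 98.5 in the spotted-dick arrays, against 172.7, 166.8 and 172.4 in the GFP arrays. The spotted-dick arrays lay on both sides of the GFP ones, and the change of -0.20 ± 0.18 (SE, limma adjusted p = 0.718) did not pass. RpS7 gave changes of 0.017 from its bright probe set and -0.004 from its dim one. The 2 bright probe sets of RpS29 gave 0.011 and -0.015.

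Genes that work with the ribosomal proteins were taken from short lists. Of 21 tested ribosome biogenesis genes 1 rose and none fell, with a median change of 0.12 after quantile normalization. The riser was Fib, which encodes fibrillarin, the methylase of ribosomal RNA in the nucleolus. Its signals were 1065, 1275 and 1159 in the spotted-dick arrays and 1402, 1146 and 879 in the GFP arrays. Its groups overlapped as deposited, and the call (log2 change 0.31 ± 0.057, SE, limma adjusted p = 0.00714) was lost without normalization (limma adjusted p = 0.895). The other snoRNP genes Nop60B, Nop56 and NHP2 had changes of 0.23, 0.19 and 0.18 that did not pass (limma adjusted p = 0.273, 0.184 and 0.179). Nop60B was read from 1 of its 2 probe sets. In the deposited values the limma adjusted p was 0.948, 0.869 and 0.856. Their mean deposited signals were each lower in the spotted-dick arrays, at 978, 1024 and 1806, against 999, 1084 and 1920 in the GFP arrays. None of 5 genes for RNA polymerase I subunits and Max passed (log2 changes of 0.038 to 0.29). Neither did any of 7 elongation factor and related translation genes, among them eEF1gamma (log2 change -0.12) and Rack1 (0.097), a protein bound to the small subunit. None of 4 ribosomal protein-like genes outside the symbol rule passed, RpLP0-like having a change of 0.27 and RpL22-like of -0.15. Of the genes known to respond to loss of a ribosomal protein, Irbp18, the partner of Xrp1, had a change of -0.22 (limma adjusted p = 0.309), GstE6 had -0.11, and Xrp1 had no probe set named here. For these lists the background is again 2.03% of probe sets called.

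Since RpS10a is a copy known mainly from the germline, germline and testis markers were read beside it. All 5 testis markers (dj, can, Mst87F, bb8 and aly) lay below background on every array, with summed signals of 12.1 to 23.9 in the spotted-dick arrays and 6.2 to 27.2 in the GFP arrays. Of 7 germline markers with a probe set, 5 were tested and none passed. Only aub, a piRNA pathway gene, lay above background on all 6 arrays, with a log2 change of -0.27 (limma adjusted p = 0.510), and bam had 0.059, piwi 0.24, AGO3 0.39 and ovo 0.18. Of the others, piwi and ovo lay above background on 5 arrays, bam on 4 and AGO3 on 2, while otu and tej lay below background throughout. The germline markers vas and nos had no probe set named here. The summed signal of the 7 was 109.4 to 164.4 in the spotted-dick arrays and 127.5 to 191.6 in the GFP arrays. Of the 10 tested plasmatocyte and S2 markers 1 rose, Pxn, an extracellular matrix peroxidase (log2 change 1.39 ± 0.18, SE, limma adjusted p = 4.23e-04). The Pxn probe set read, 1 of 2 for the gene, had signals of 73.0, 56.9 and 62.1 in the spotted-dick arrays. In the GFP arrays they were 30.2, 11.5 and 16.8, with GFP replicates 2 and 3 below background. The part of Pxn in the RpS10a result was not tested. For all these markers the background is 2.03% of probe sets called.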

How the data were processed

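RNA of 6 samples was hybridised to 1 Affymetrix Drosophila_2 array each, per the file headers. The deposited table held 1 intensity per probe set and array; no source used here gives its software, background correction or scaling. Of 18894 probe sets 125 were controls. Genes were named from the platform annotation. Groups and replicate numbers came from the titles. Signals were taken as log2(signal + 16), quantile-normalized over the 18769 fly probe sets, and those with a mean at or above the 40th percentile were fitted with limma 3.58.1 in R 4.3.3 (lmFit, eBayes with trend), with Benjamini-Hochberg adjustment over all 11261 and calls under 0.05. The fit was tested on simulated data. An earlier analysis used the deposited values, kept here as an alternative. Members, lists and tests were chosen with earlier results of these data known. The genes named by rule were the duplicate copies, members called after normalization or as deposited, the 5 tested members with the largest rise and the 5 with the largest fall, those nearest the threshold, called list genes and pita; others were chosen after their values were seen. The symbol pes was dropped from the biogenesis list because it names another gene. Same-numbered samples did not deviate together (correlations -0.06, -0.03 and 0.05), so numbers were not treated as pairs. Alternatives were other scalings, pseudocounts of 1 and 64, other filters, other variance estimates, replicate or station blocks and leaving out each array. Figures used matplotlib 3.10.9 in Python 3.11.15.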

Additional observations from a re-analysis of the deposited data

How the results depend on the processing

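The count of members called, 1 (RpS10a), was the same in all 19 alternatives, that with the replicate block included. Updating the gene symbols (40 members again) and keeping 1 probe set per gene reused the same fit, so they could not change the RpS10a call. With the replicate block RpS10a had a change of 1.60 (limma adjusted p = 2.70e-04) and 199 probe sets were called in all. The count over all probe sets, 229, was 140 in the deposited values, 126 without the filter and 53 without the intensity trend, and 115 to 249 with 1 array left out (115, 145 and 142 without GFP replicates 2 and 3 and spotted-dick replicate 3). The median change of the members, 0.018, moved to -0.13 in the deposited values, -0.068 with median centring and 0.15 with the hybridisation controls, and was 0.012 to 0.026 with 1 array left out. Signs differed from those after quantile normalization for 21 bright members and 1 dim one in the deposited values, 20 and 1 with median centring and 9 and 2 with the hybridisation controls, none of which passed the test. These scalings shift all probe sets of an array alike. Among them, with the hybridisation controls RpL32 had 0.061, RpS28a 0.12, RpS20 0.075, RpL39 0.12 and the dim RpS7 probe set 0.13. Also among them, in the deposited values RpL34a had -0.19, RpS19b -0.21 and the bright RpL3 probe set -0.045, and with median centring RpL34a had -0.13 and RpS19b -0.14. With 1 array left out, where the cause of turned signs was not tested, the changes ran from -0.44 to 0.055 for the dim RpS30 probe set, -0.11 to 0.002 for RpL32, -0.43 to 0.40 for RpS28a, -0.079 to 0.095 for the dim RpS7 probe set, -0.025 to 0.099 for RpL34a and -0.016 to 0.081 for RpS19b. The ratio of RpL10Aa to RpL10Ab then differed by -0.042 to 0.12, and that of RpS28a to RpS28b by -0.40 to 0.41. The ratio of RpS28a to RpS28b differed by 0.007 in the deposited values, with median centring and with the hybridisation controls. Under the same scalings that of RpL10Aa to RpL10Ab differed by 0.16 (exact permutation p = 0.10, the smallest possible). RpL10Aa lay below background on every array, so that value cannot show a shift between the copies. The ratios of RpS10a kept their sign in all 14 alternatives each, but not all of these could differ. The replicate block and the averaging of a gene's probe sets repeated the values with quantile normalization. Median centring and the hybridisation controls repeated those of the deposited values, since a shift of a whole array cancels in a ratio. Dim probe sets near background limit what can be said of the copies other than RpS10a, and the bright ones lie near the top of the signal range.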
